A study of Mus musculus with 12 samples.

Results

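The 10 genes described here encode enzymes of branched-chain amino acid breakdown. They are Bcat1, Bcat2, Bckdha, Bckdhb, Bckdk, Dbt, Ivd, Mccc1, Mccc2 and Hibadh, chosen by name from a table of 55487 genes, and none of the symbols was repeated. All 10 reached a TPM of 1 in 2 or more of the 12 libraries and so belonged to the 15968 genes tested. TPM is a share of all transcripts corrected for transcript length, so levels can be compared between genes.

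Leucine, isoleucine and valine first lose their amino group to a transaminase, which is cytosolic (Bcat1) or mitochondrial (Bcat2). The keto acids are then decarboxylated by the branched-chain keto acid dehydrogenase complex of mitochondria, which is built from the decarboxylase subunits Bckdha and Bckdhb, the acyltransferase core Dbt and the shared subunit Dld. The kinase Bckdk switches the complex off and the phosphatase Ppm1k switches it on. Beyond the complex the routes part, with Ivd, Mccc1 and Mccc2 on the leucine route and Hibadh on the valine route. Fat cells are known to use this pathway, and its carbon can enter lipid synthesis.

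The cells were 3T3-L1, an established mouse fibroblast line that becomes adipocyte-like after hormonal induction with IBMX, dexamethasone and insulin (MDI medium). They carried a lentiviral hairpin, either a scrambled control (shScram) or one against Fto (shFto), the RNA m6A demethylase, and were selected with puromycin. Whether each line was a pool of infected cells or a clone, and which of the hairpins against Fto was used, is not given in the sources used here. Both lines were collected as preadipocytes (Pre), during mitotic clonal expansion (MCE), the round of division that follows induction, and at the differentiation stage (Diff). Diff names the time of collection and not a state that both lines reached, since adipocyte markers differed between the lines there. Each of the 6 groups had 2 libraries. Nothing in the labels says that the replicates came from separate cultures, so p-values measure only the spread between these libraries, which may be technical. Libraries of rhein-treated cells were not used here.

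Fto was 52.7 to 73.5 TPM in the shScram libraries and 5.51 to 7.47 TPM in the shFto libraries, and the lines did not overlap at any stage. Replicate 1 of shScram Diff has a title naming shScram and a treatment entry naming the Fto knockdown; the title was followed, and its 73.5 TPM of Fto lay with the other shScram libraries. Replicate 1 of shScram Pre stood apart. Across all tested genes its log2 values correlated with those of replicate 2 at r = 0.939, against 0.990 to 0.993 in the other groups, and transcripts encoded by the mitochondrial genome took 14.5% of its TPM, against 4.58% to 9.17% elsewhere. Differences between the lines described for the 10 members whose call changed without it are given with both values. The defining markers of fibroblasts and preadipocytes summed to 9237 to 14411 TPM in each library, while those of leukocytes summed to at most 4.06 TPM, of endothelium to 1.15 TPM, of skeletal muscle to 1.25 TPM and of epithelium to 1.12 TPM.

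Promoter sequence was looked at because the enzymes differed in how they changed. RefSeq gave 12 start sites for 9 of the 10 genes, on GRCm38.p6, each with the 250 bases before and the 50 after it. CCAAT, the box bound by the general factor NF-Y, was found on either strand in 8 of the 12 promoters, from 7 genes, against 37.4% of all promoters in the table. GGGCGG, the GC box bound by Sp1-type factors, was in 3 of 12 against 35.7%. CACGTG, the E-box bound by basic helix-loop-helix factors, was in 1 of 12 against 7.15%, and TTGCNNAA, a C/EBP site, and the DR1 element of PPAR-RXR dimers, without mismatch, were in 0 of 12 against 10.8% and 0.0396%. These are matches of letters, not measured binding sites, and promoters of 1 gene can overlap. Windows follow for each of the 4 members called between the lines, on the strand of the gene, with the box in capitals (ATTGG is CCAAT on the other strand). The matches shown lay 53 bases before the start site in Bcat1, 119 before it in Bckdk, 131 and 47 before it in Ivd, and 33 before it (CCAAT) and 9 before it (E-box) in Mccc2. Counted over all start sites of a gene, CCAAT matched 1 time in Bcat1, 1 time in Bckdk, 4 times in Ivd and 3 times in Mccc2, so not every match is printed. In Mccc2 the matches 33 and 30 bases before the start site share letters, 1 on each strand. Of the members not called between the lines, Bckdhb and Mccc1 had 3 matches each, Hibadh had 1, and Bcat2 and Bckdha had none.
Bcat1, chr6:145076193-145076222, minus strand: gtacagcgtatgATTGGgggagggactggg
Bckdk, chr7:127903942-127903971, plus strand: ataactttggaaCCAATgctactcatttga
Ivd, chr2:118861851-118861880, plus strand: gcctctcggctgATTGGcttgcatggttgc
Ivd, chr2:118861935-118861964, plus strand: accccctccctgATTGGacaaagtgttgaa
Mccc2, chr13:100015655-100015684, minus strand: gcgcagcgccgaCCAATtggaggtggtctg
Mccc2, chr13:100015631-100015660, minus strand: ggtctgcgatggCACGTGtgcggggctggc

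Bcat1, the cytosolic transaminase, was the member with the largest difference between the lines at the MCE and Diff stages. It lies on chromosome 6 of GRCm38 from 144993835 to 145076184. In shScram cells it measured 123 and 149 TPM at Pre, 64.0 and 66.3 TPM at MCE and 26.0 and 32.2 TPM at Diff. In shFto cells it measured 220.3 and 213 TPM, then 164 and 174.5 TPM, then 99.7 and 102.3 TPM. Both shFto libraries were above both shScram libraries at every stage, and in both lines the level was lowest after differentiation. On the log2(TPM + 1) scale used for all tests, shFto exceeded shScram by 0.67 (SE 0.14, limma adjusted p = 0.010) in preadipocytes, by 1.36 (SE 0.14, adjusted p = 0.00025) at the MCE stage and by 1.77 (SE 0.14, adjusted p = 4.5e-05) after differentiation. The means stood at ratios of 1.59, 2.60 and 3.47. The first difference was 0.54 without replicate 1 of shScram Pre and stayed past the threshold of 0.05. Over 21 alternative settings of the fit, the preadipocyte difference passed in 18. The order of the 6 groups, from shFto Pre (mean 216.6 TPM) to shScram Diff (29.1 TPM), had no overlap between any neighbours.

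Bcat2, the mitochondrial transaminase on chromosome 7 (45570153 to 45589711), had the opposite sign to Bcat1 between the lines at the MCE and Diff stages only. In shScram cells it measured 12.4 and 39.1 TPM at Pre, 39.5 and 40.8 TPM at MCE and 89.5 and 82.1 TPM at Diff. The corresponding shFto values were 42.8 and 38.6 TPM, 23.8 and 23.1 TPM, and 56.8 and 61.8 TPM. At the MCE and Diff stages both shFto libraries lay below both shScram libraries. The differences there, -0.75 and -0.53 (SE 0.39 each), did not pass the test (limma adjusted p = 0.24 and 0.39), with 95% intervals of -1.64 to 0.14 and -1.41 to 0.36. The libraries of shScram Pre lay apart at 12.4 and 39.1 TPM, and the SE came to 0.082 without the first of them and 0.083 without the second. Without the first the differences were the same size with adjusted p-values of 5.7e-05 and 0.00054, which over all 21 alternatives ranged from 5.7e-05 to 0.50 and from 0.00054 to 0.64. In preadipocytes the difference was 0.84 with both shScram libraries and 0.055 without replicate 1, and neither passed, while without replicate 2 it was 1.63 (adjusted p = 4.0e-07).

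The ratio of Bcat1 to Bcat2 within a library put these values together. It was 9.91 and 3.82 in shScram preadipocytes, 1.62 and 1.63 at the MCE stage and 0.291 and 0.393 after differentiation. In shFto cells it was 5.15 and 5.52, 6.89 and 7.57, and 1.76 and 1.66. After differentiation the mitochondrial enzyme thus had more TPM than the cytosolic one in both shScram libraries and less in both shFto libraries, and the lines did not overlap at the MCE stage either. The ratio is a description and was not tested.

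**Figure D1:**
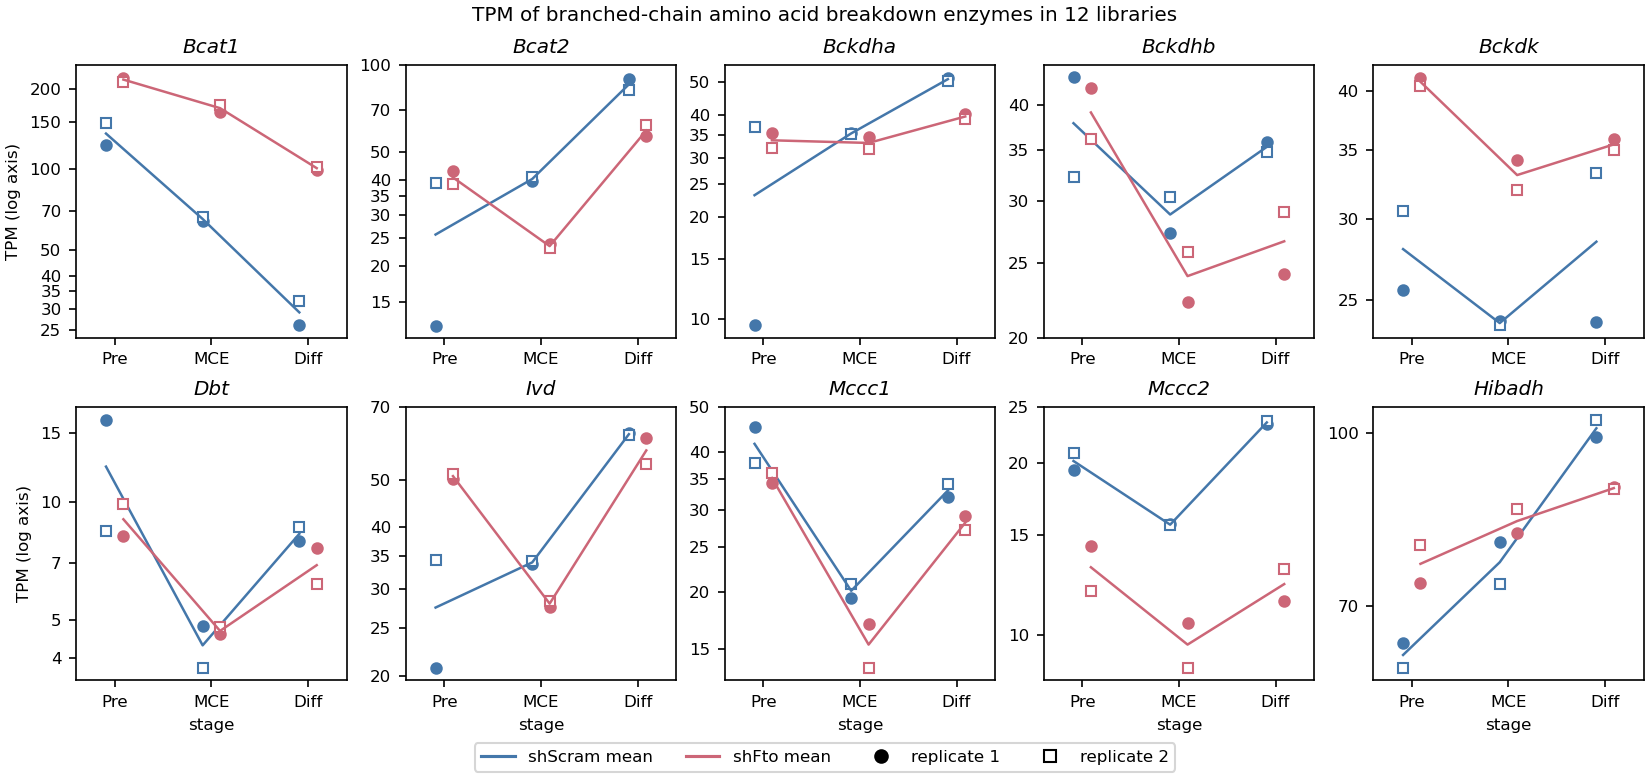
TPM of the 10 enzymes (log vertical axis, a different range in each panel) at the Pre, MCE and Diff stages in shScram (blue) and shFto (red) cells, with a filled circle for replicate 1, an open square for replicate 2 and a line through the group means. Bcat1 fell over the stages and was higher in shFto cells throughout, Mccc2 was lower in shFto cells throughout, and replicate 1 of shScram Pre lay far from replicate 2 for Bcat2 (12.4 against 39.1 TPM) and Bckdha (9.58 against 36.9 TPM).

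The subunits Bckdha, Bckdhb and Dbt of the dehydrogenase complex did not pass the threshold between the lines at any stage in the fit of all 12 libraries. Bckdha (chromosome 7, 25629946 to 25658981) measured 9.58 and 36.9 TPM in shScram preadipocytes, 35.4 and 35.3 TPM at MCE and 51.7 and 50.6 TPM at Diff. In shFto cells it stayed between 31.9 and 40.3 TPM over all 6 libraries. After differentiation both shFto libraries, at 40.3 and 39.0 TPM, were below both shScram libraries, a difference of -0.36 (SE 0.45, adjusted p = 0.63, 95% interval -1.38 to 0.66). In preadipocytes the sign hung on 1 library, since the difference was 0.79 with replicate 1 of shScram Pre and -0.13 without it, neither past the threshold, and 1.71 without replicate 2, which passed.

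Bckdhb, the partner decarboxylase subunit (chromosome 9, 83925145 to 84124240), measured 43.5 and 32.2 TPM in shScram preadipocytes, 27.3 and 30.4 TPM at MCE and 35.8 and 34.7 TPM at Diff. Under shFto it measured 42.0 and 36.1 TPM, 22.2 and 25.8 TPM, and 24.2 and 29.1 TPM. The lines overlapped in preadipocytes and lay apart after that, with a difference of -0.40 at the Diff stage (SE 0.17, adjusted p = 0.14, 95% interval -0.79 to -0.0063 before adjustment over genes). Both Bckdha and Bckdhb passed at the Diff stage without replicate 1 of shScram Pre, with the same differences (adjusted p = 0.0037 and 0.019, and 0.0037 to 0.79 and 0.019 to 0.50 over the 21 alternatives).

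Dbt, the acyltransferase core (chromosome 3, 116513070 to 116549981), had the lowest mean level of the 10 in each of the 6 groups. Its values in shScram cells were 16.2 and 8.42 TPM, 4.83 and 3.78 TPM, and 7.97 and 8.63 TPM in the order of the stages. In shFto cells they were 8.19 and 9.90 TPM, 4.59 and 4.78 TPM, and 7.62 and 6.19 TPM. The lines overlapped in preadipocytes and at the MCE stage. At the Diff stage both shFto libraries lay below both shScram libraries, and the difference did not pass. Dld, which other dehydrogenase complexes share, was lower in shFto preadipocytes (94.6 and 105 TPM against 189.8 and 121 TPM, difference -0.60, SE 0.19, adjusted p = 0.048). That call was lost without replicate 1 of shScram Pre, with a difference of -0.27 and an adjusted p of 0.079.

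Bckdk, the kinase that inactivates the complex (chromosome 7, 127904082 to 127910221), was the other member above the shScram libraries at every stage. It measured 25.5 and 30.5 TPM in shScram preadipocytes, 23.9 and 23.6 TPM at MCE and 23.8 and 33.2 TPM at Diff. In shFto cells it measured 41.2 and 40.4 TPM, 34.2 and 32.0 TPM, and 35.9 and 34.98 TPM. The difference was 0.53 (SE 0.16, adjusted p = 0.040) in preadipocytes, and 0.46 (adjusted p = 0.085) and 0.32 (adjusted p = 0.20) at the later stages did not pass. The first call was lost without replicate 1 of shScram Pre (0.41, adjusted p = 0.076) and passed in 6 of 21 alternatives, where its adjusted p ranged from 0.0041 to 0.76, while the MCE difference passed without that library (adjusted p = 0.015, and 0.011 to 0.33 over the alternatives). Against the mean TPM of Bckdha, Bckdhb and Dbt in the same library, Bckdk stood at 0.747 to 1.18 over the 6 shScram libraries and at 1.41 to 1.67 over the 6 shFto libraries, which did not overlap (no test). Ppm1k, the opposing phosphatase, did not pass in any of the 3 comparisons of the lines, with 2.20 to 6.78 TPM over all libraries.

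**Figure D2:**
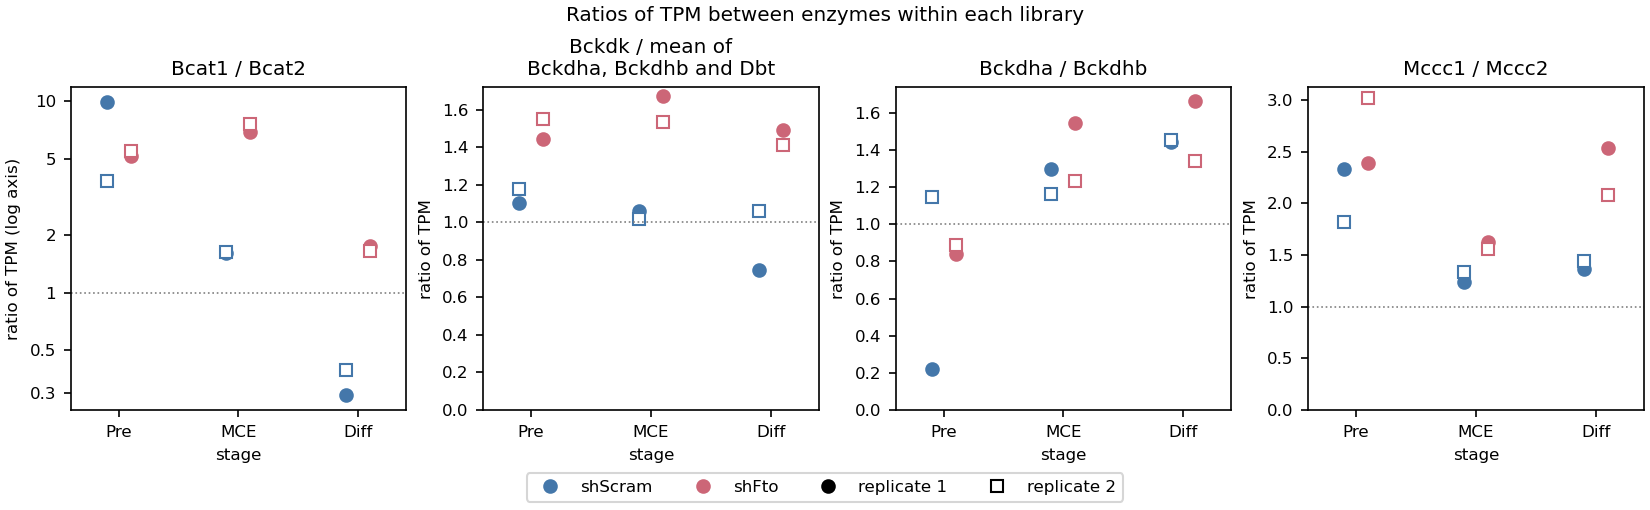
Ratios of TPM within each of the 12 libraries for Bcat1 to Bcat2 (log axis), Bckdk to the mean of Bckdha, Bckdhb and Dbt, Bckdha to Bckdhb, and Mccc1 to Mccc2 (linear axes from 0), by stage, for shScram (blue) and shFto (red) with the replicates as circles and squares. The kinase ratio was 0.747 to 1.18 in shScram and 1.41 to 1.67 in shFto libraries, and the Bcat1 to Bcat2 ratio after differentiation was below 1 in shScram and above 1 in shFto libraries.

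On the leucine route, Mccc2 carried the most regular decrease. Mccc1 and Mccc2 encode both subunits of methylcrotonyl-CoA carboxylase, a biotin enzyme, and Mccc2 (chromosome 13, 99948530 to 100015639) is the one without the biotin. In shScram cells Mccc2 measured 19.5 and 20.9 TPM, 15.6 and 15.6 TPM, and 23.4 and 23.7 TPM at the Pre, MCE and Diff stages. In shFto cells it measured 14.3 and 11.9 TPM, 10.5 and 8.78 TPM, and 11.5 and 13.1 TPM. No shFto library reached the lowest shScram library of any stage. Mccc2 fell by 0.58 (SE 0.14, adjusted p = 0.019) in preadipocytes, by 0.65 (SE 0.14, adjusted p = 0.014) at the MCE stage and by 0.89 (SE 0.14, adjusted p = 0.0026) after differentiation, where the shFto mean was 52.2% of the shScram mean. The first value was -0.63 without replicate 1 of shScram Pre and still passed. Over the 21 alternatives the preadipocyte difference passed in 19 and the MCE difference in 18.

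Mccc1, the biotin-carrying subunit (chromosome 3, 35959312 to 36000678), also had every shFto library below every shScram library of the same stage, by less. For shScram against shFto it measured 45.4 and 37.98 against 34.3 and 36.1 TPM at Pre, 19.4 and 20.8 against 17.1 and 13.7 TPM at MCE, and 32.0 and 34.1 against 29.2 and 27.2 TPM at Diff. None of these differences passed, with -0.37 (SE 0.14, adjusted p = 0.11) at the MCE stage, which passed without replicate 1 of shScram Pre (adjusted p = 0.018, and 0.018 to 0.54 over the alternatives). The subunit ratio of Mccc1 to Mccc2 was 1.37 and 1.44 in shScram and 2.54 and 2.08 in shFto cells after differentiation. The antisense gene Gm15952 and the same-strand gene Gm43080 overlap the span of Mccc1, with mean TPM of 2.16 and 1.95. Overlap of exons was not checked, and the use of strand in the counting is not given in the sources. The value of Mccc1 is therefore uncertain by an unknown amount. Genes that overlap Bcat1, Bcat2, Bckdha, Bckdhb, Dbt or Hibadh had a mean of at most 0.533 TPM.

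Ivd, isovaleryl-CoA dehydrogenase (chromosome 2, 118861954 to 118882909), differed past the threshold in preadipocytes and not at the later stages. In preadipocytes shScram gave 20.7 and 34.3 TPM and shFto gave 50.2 and 51.4 TPM, a difference of 0.90 (SE 0.20, adjusted p = 0.013). At the MCE stage the order was turned, with 33.7 and 34.2 TPM for shScram against 27.6 and 28.4 TPM for shFto (-0.27, SE 0.20, adjusted p = 0.42). After differentiation it measured 62.1 and 61.5 TPM against 60.8 and 53.8 TPM. Over the 21 alternatives the preadipocyte difference passed in 18. Without replicate 1 of shScram Pre the preadipocyte difference was 0.55 and still passed, and the MCE difference passed as well (adjusted p = 0.016, and 0.016 to 0.69 over the alternatives).

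On the valine route, Hibadh, 3-hydroxyisobutyrate dehydrogenase (chromosome 6, 52546228 to 52640389), was the most even member. For shScram against shFto it measured 65.0 and 61.7 against 73.5 and 79.3 TPM at Pre, 80.0 and 73.3 against 81.3 and 85.5 TPM at MCE, and 99.2 and 103 against 89.5 and 89.0 TPM at Diff. The shFto libraries lay above at the first 2 stages and below at the last, and no difference passed the test with all libraries. Without replicate 1 of shScram Pre the preadipocyte difference of 0.30 passed (0.27 and adjusted p = 0.084 with it).

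**Figure D3:**
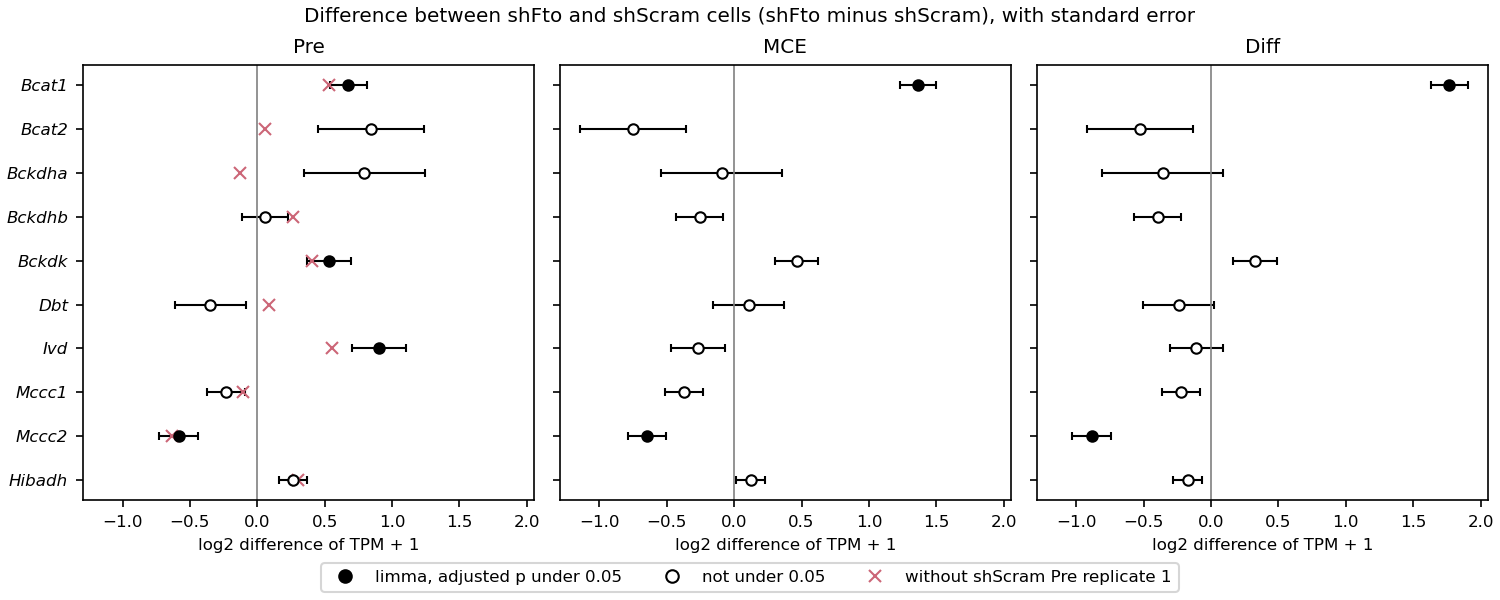
Difference between shFto and shScram cells (shFto minus shScram, log2 of TPM + 1) for the 10 enzymes at each stage, with the standard error as a bar, filled points where the limma adjusted p was under 0.05 and red crosses for the preadipocyte values without replicate 1 of shScram Pre. Bcat1 moved from 0.67 to 1.77 and Mccc2 from -0.58 to -0.89 from the Pre to the Diff stage, and the crosses of Bcat2 (0.055) and Bckdha (-0.13) lie far from their points.

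Counted together, 4 of the 10 members differed between the lines in preadipocytes, with Bcat1, Bckdk and Ivd higher and Mccc2 lower in shFto cells. Of all tested genes, 28.2% passed the same comparison, 15.9% as higher and 12.3% as lower. At the MCE stage and at the Diff stage 2 of 10 passed, Bcat1 higher and Mccc2 lower. The shares of all genes were 17.8% at the MCE stage (10.5% higher, 7.26% lower) and 21.2% at the Diff stage (11.9% higher, 9.31% lower). These shares lie near those of the whole table, so the counts by themselves do not set the enzymes apart. The median difference of the members was 0.40, -0.17 and -0.23 at the successive stages, beside 0.081, 0.051 and 0.032 for all tested genes. The first of these medians was 0.18 without replicate 1 of shScram Pre, where that of all genes was close to 0, and 0.44 without replicate 2, beside 0.15. After differentiation all 10 members had no overlap between the lines, 2 higher and 8 lower in shFto cells, and 72.9% of all tested genes had none either, with 39% higher and 34% lower. In preadipocytes and at the MCE stage 6 and 9 of 10 had no overlap, against 60.5% and 71.4%. At the MCE stage 3 were higher and 6 lower, against 41.1% and 30.3% of all genes.

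The counts hung on the libraries in the fit. Without replicate 1 of shScram Pre 4, 6 and 5 of 10 passed at the Pre, MCE and Diff stages, against 29%, 41% and 45.7% of all genes, and without replicate 2 they were 9, 6 and 5, against 62.8%, 41% and 45.6%. The preadipocyte count fell to 1 and 0 without replicate 1 or 2 of shFto Pre, where 7.32% and 9.88% of all genes passed. The MCE count fell to 1 without replicate 1 or 2 of shScram MCE or replicate 2 of shFto MCE, where 8.97%, 8.94% and 7.61% passed.

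Markers of the adipocyte state moved with the same groups. Of 16 adipocyte markers, 14 were tested. At the MCE stage shFto cells had 8 of them lower and 1 higher, against 7.26% and 10.5% of all genes. After differentiation 11 were lower, against 9.31% of all genes. The means of Cebpa (4.39 TPM for shScram, 5.48 TPM for shFto) and Dgat2 (6.64 and 9.01 TPM) went the other way there. The sum of the markers, shScram against shFto, was 232 to 235 against 345 to 373 TPM at Pre, 537 to 553 against 341 to 357 TPM at MCE, and 1911 to 1958 against 547 to 590 TPM at Diff. Most of the Pre sum was Lpl, with means of 142.9 TPM for shScram and 264.1 TPM for shFto. Adipoq was listed at 0 in all preadipocyte libraries and had a mean of 74.8 TPM for shScram and 4.86 TPM for shFto after differentiation. Lep stayed at 0 or at most 0.0309 TPM in every library of every stage. Of the 4 thermogenic markers, Dio2, which activates thyroid hormone, had means of 1.30 TPM for shScram and 16.2 TPM for shFto at MCE and 0.622 and 24.2 TPM at Diff. The others did not rise with it, since Ppargc1a went from 2.65 to 1.44 TPM at Diff, Cidea had means of at most 0.270 TPM and Ucp1 of at most 0.0212 TPM in any group. Transcripts of the mitochondrial genome took 5.72% to 6.22% against 4.83% to 4.89% at MCE and 7.40% to 9.17% against 4.58% to 4.61% at Diff. The part of these differences in the values of the enzymes was not tested, and in such bulk RNA fewer differentiated cells and less RNA per cell cannot be told apart.

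The stage comparisons ask how each enzyme changed within a line. The values in the next paragraphs are given as fitted and, in parentheses, after subtraction of the median of all tested genes, which was -0.17 for MCE minus Pre and 0.23 for Diff minus MCE in shScram cells and -0.18 and 0.17 in shFto cells. With scaling by median ratios these medians came to between -0.0075 and 0.026, and the share of higher genes among those called went from 31.1%, 79.3%, 30.6% and 75.7% to 52.0%, 53.4%, 48.6% and 57.2%.

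From Pre to MCE, 3 of 10 members fell in shScram cells and none rose, against 39.1% of all genes called and 26.9% called lower. Bcat1 fell by 1.04 (relative value -0.88, SE 0.14, adjusted p = 0.00055), Dbt by 1.27 (relative value -1.10, SE 0.26, adjusted p = 0.0059) and Mccc1 by 1.01 (relative value -0.85, SE 0.14, adjusted p = 0.00082). All 3 passed without replicate 1 of shScram Pre too, with Dbt then at -0.84. In shFto cells 4 of 10 fell and none rose, against 28.7% called and 19.9% called lower. Mccc1 fell by 1.15 (relative value -0.97, adjusted p = 0.00044), Ivd by 0.84 (relative value -0.65, adjusted p = 0.012), Dbt by 0.82 (relative value -0.63, adjusted p = 0.047) and Bckdhb by 0.68 (relative value -0.50, adjusted p = 0.017). Bcat1 had -0.35 in this line (adjusted p = 0.087). Median-ratio scaling made it 3 lower and 3 higher in shScram cells, against 2882 and 3126 of the 15968 genes tested. It left 2 lower in shFto cells, against 2305 genes, and the calls of Dbt and Bckdhb were lost there. Without replicate 2 of shScram Pre the shScram count was 8, against 64.7% of all genes. The shFto count was 7 without either shScram Pre library, against 51.1% in both cases, and 1 or 2 without any 1 of the shFto Pre or MCE libraries, against 16% to 19.4%.

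From MCE to Diff, 4 of 10 rose and 1 fell in shScram cells, against 25.2% called, 20% called higher and 5.22% called lower. Ivd rose by 0.84 (relative value 0.61, SE 0.20, adjusted p = 0.015), Mccc1 by 0.69 (relative value 0.46, SE 0.14, adjusted p = 0.0089), Mccc2 by 0.56 (relative value 0.33, SE 0.14, adjusted p = 0.021) and Hibadh by 0.39 (relative value 0.16, SE 0.10, adjusted p = 0.025). Bcat1 fell by 1.14 (relative value -1.37, SE 0.14, adjusted p = 0.00074), to 44.7% of its MCE mean. Bcat2 had 1.07 (adjusted p = 0.076) and Dbt 0.82 (adjusted p = 0.052). In shFto cells 3 rose and 1 fell, against 26.7% called, 20.2% called higher and 6.48% called lower. Bcat2 rose by 1.30 (relative value 1.13, SE 0.39, adjusted p = 0.038), Ivd by 1.00 (relative value 0.84, adjusted p = 0.0062) and Mccc1 by 0.84 (relative value 0.67, adjusted p = 0.0032), while Bcat1 fell by 0.74 (relative value -0.91, adjusted p = 0.0047). Median-ratio scaling left Ivd and Bcat1 in shScram cells and all 4 in shFto cells, against 3603 and 4435 of the 15968 genes tested. With the correction for GC content, chosen after seeing the data, the rise of Hibadh came to 0.039 and did not pass. The shScram count was 8 without either shScram Pre library, against 52% of all genes in both cases, and 1 or 2 without any 1 shScram MCE or Diff library, against 10.1% to 15.1%. The shFto count was 7 without replicate 1 or 2 of shScram Pre, against 50.9% and 51%, and 2 without replicate 1 of shFto Diff, against 14.3%.

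**Figure D4:**
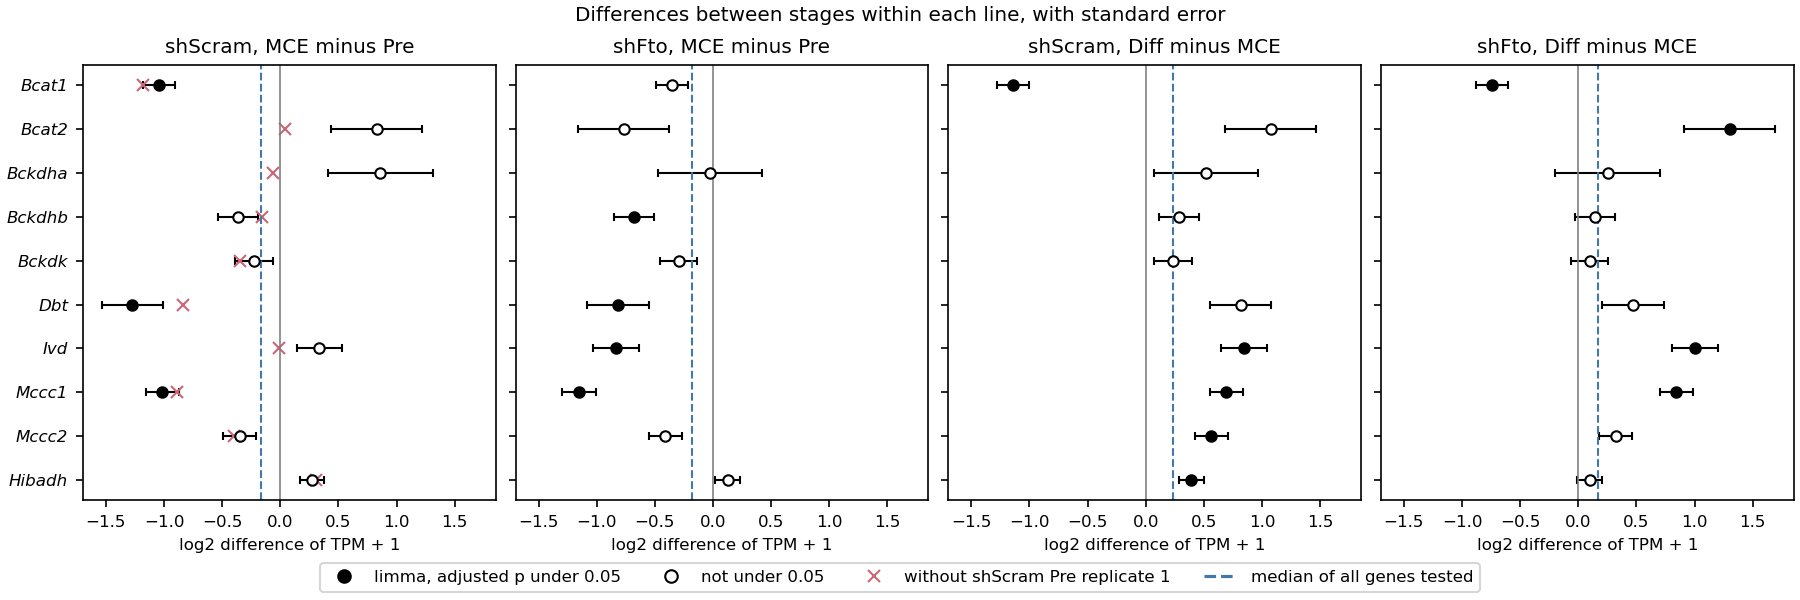
Differences between successive stages within shScram and shFto cells (log2 of TPM + 1) for the 10 enzymes, with the standard error as a bar, filled points where the limma adjusted p was under 0.05, red crosses for shScram MCE minus Pre without replicate 1 of shScram Pre, and a dashed line at the median of all tested genes. Mccc1 was lower at MCE (-1.01 and -1.15) and higher again at Diff (0.69 and 0.84) in both lines, while Bcat1 was below 0 in every panel.

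The test of the difference between the lines in these stage changes called 1 of 10 members from Pre to MCE, Ivd, against 5.11% of all genes. Ivd had 0.34 in shScram cells (-0.014 without replicate 1 of shScram Pre) and -0.84 in shFto cells, a difference of -1.17 (SE 0.28, adjusted p = 0.048). Bcat1 (0.69, adjusted p = 0.081) and Bcat2 (-1.60, adjusted p = 0.14) did not pass. Without replicate 1 of shScram Pre, Bcat1 (0.83), Bcat2 (-0.81) and Ivd (-0.82) all passed, against 14.1% of all genes, and without replicate 2 the count was 5, against 52.5%. It was 0 when any 1 of the other 10 libraries was left out, where 1.6% to 3.19% of all genes passed. From MCE to Diff limma called 0 of 10, against 2.49% of all genes. It gave 0 of 10 an unadjusted p under 0.05, against 2437 of the 15968 genes tested.

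In the other genes of the pathway, 24 on the list, 23 passed the filter on low values, and Slc7a8, a transporter, did not reach 1 TPM in any library. In preadipocytes shFto cells had 2 higher and 2 lower, at the MCE stage 1 and 2, and after differentiation 1 and 4. Of all genes, 28.2%, 17.8% and 21.2% were called in either direction. Klf15, under 1 TPM in every preadipocyte library, is among the higher ones at that stage. Without replicate 1 of shScram Pre these counts were 2 and 4, 2 and 5, and 3 and 14, against 29%, 41% and 45.7%. Without replicate 2 the preadipocyte count was 9 and 6, against 62.8%. Auh, the hydratase that follows methylcrotonyl-CoA carboxylase on the leucine route, measured 28.4 and 28.7 TPM for shScram and 59.5 and 52.8 TPM for shFto after differentiation, a difference of 0.95 (SE 0.13, adjusted p = 0.0012). It was also higher at the MCE stage (0.49, adjusted p = 0.033). Mccc2, in the step before it, had the opposite sign.

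Aldh6a1, the methylmalonate semialdehyde dehydrogenase that follows Hibadh on the valine route, was lower under shFto at the MCE and Diff stages, with differences of -0.73 and -0.81 (SE 0.19 each, adjusted p = 0.029 and 0.016). In preadipocytes the difference of -0.58 passed with all libraries (adjusted p = 0.049) and was -0.29 without replicate 1 of shScram Pre, which did not pass (adjusted p = 0.12). After differentiation it measured 55.6 and 58.0 TPM for shScram and 32.6 and 31.3 TPM for shFto. Mmut, which turns methylmalonyl-CoA into succinyl-CoA, was lower after differentiation (42.2 and 45.3 against 29.1 and 27.3 TPM, difference -0.62, adjusted p = 0.013), as was Mmaa, a helper of its cobalamin cofactor (-0.57, adjusted p = 0.047). Over all 15968 genes tested, limma gave 7098, 4837 and 5355 an unadjusted p under 0.05 between the lines at the Pre, MCE and Diff stages. With the correction for GC content it called 4994, 4655 and 5216 of 15928 genes. Of the 4 tested genes of the isoleucine route, limma called 0 between the lines at each stage in the fit of all 12 libraries (0, 1 and 2 at an unadjusted p under 0.05). At the Pre, MCE and Diff stages 2, 1 and 4 passed without replicate 1 of shScram Pre, and with the correction for GC content 0, 1 and 3.

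Slc43a2, a membrane carrier of large neutral amino acids, crossed over between the stages. For shScram against shFto it measured 0.924 and 2.18 against 4.03 and 4.45 TPM at Pre, 26.3 and 23.8 against 10.3 and 11.4 TPM at MCE, and 19.5 and 16.6 against 8.57 and 11.02 TPM at Diff. The differences were 1.08, -1.14 and -0.82 (SE 0.23 each, adjusted p = 0.013, 0.011 and 0.036), and the change from Pre to MCE differed between the lines by -2.22 (adjusted p = 0.0074). The first difference was 0.72 and that of the changes -1.85 without replicate 1 of shScram Pre, and both passed. Klf15, a transcription factor known to regulate genes of this pathway, was listed at 0 in both shScram preadipocyte libraries and at 0.436 and 0.899 TPM in the shFto ones. The limma call there (adjusted p = 0.038) was lost without replicate 1 of shScram Pre and compares values near the floor. Klf15 was under 1 TPM in every Pre and MCE library and passed the filter only through the Diff libraries. It reached 2.35 and 3.32 TPM for shScram and 2.18 and 1.43 TPM for shFto after differentiation.

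**Figure D5:**
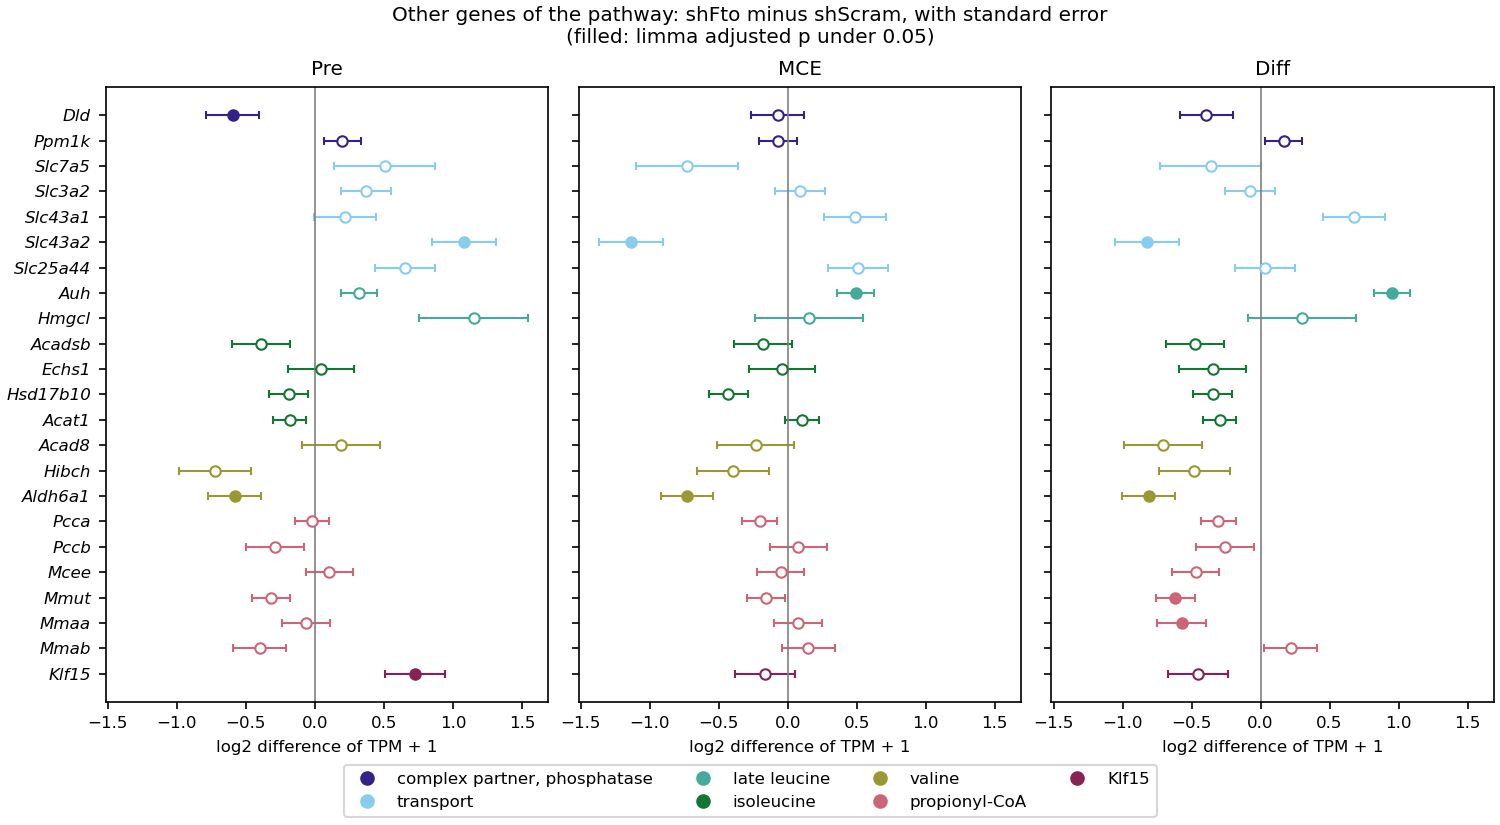
Difference between shFto and shScram cells (shFto minus shScram, log2 of TPM + 1) for 23 other genes of the pathway at each stage, coloured by route, with the standard error as a bar and filled points where the limma adjusted p was under 0.05. After differentiation Auh (0.95) was higher and Aldh6a1 (-0.81), Slc43a2 (-0.82), Mmut (-0.62) and Mmaa (-0.57) were lower in shFto cells.

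Across the 12 libraries the members fell into patterns of their own, described by Pearson's r of log2 values, which share the library and its stage and carry no test. Values over the 11 libraries without replicate 1 of shScram Pre follow in parentheses. Bcat2 ran closest to Ivd, at 0.92 (0.88), and Bckdha, at 0.86 (0.89), and Mccc1 ran closest to Dbt, at 0.89 (0.89). Bcat1 ran against Mccc2, at -0.66 (-0.71), Bcat2, at -0.63 (-0.75), and Hibadh, at -0.59 (-0.62), and with Bckdk, at 0.61 (0.67). The subunits Mccc1 and Mccc2 of 1 enzyme stood at 0.64 (0.61), while for Bckdha and Bckdhb the sign turned with that library, from -0.37 to 0.28. On the log2 scale, replicate 1 minus replicate 2 of shScram Pre was -1.84 for Bckdha, -1.58 for Bcat2 and 0.87 for Dbt, and the other 7 members lay between -0.70 and 0.42.

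Among all genes with a mean of 5 TPM or more, the pattern of Bcat1 over the 12 libraries was most like those of Prep, Pdlim1 and Nudcd2 (r = 0.97 to 0.98), that of Bcat2 most like Dennd2a (0.98), and that of Bckdha most like Ydjc (0.97). Bckdhb came nearest to Mrrf (0.91), Bckdk to Gpx7 (0.94) and Dbt to Brd7 (0.98). Ivd was most like Gabarapl1 (0.98), Mccc1 most like Stx3 (0.99), Mccc2 most like Cox15 (0.97) and Hibadh most like Adamts9 (0.96). No member was among the 3 genes most like another member. For Bckdha and Ydjc the value was 0.82 without replicate 1 of shScram Pre, and those of the other 9 members with their nearest gene were then 0.93 to 0.99.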

How the data were processed

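RNA-seq input libraries of fragmented total RNA from 3T3-L1 cells were analysed, 2 per group, assigned to groups by title. Reads were trimmed by the authors (Trim Galore 0.6.5) and mapped to GRCm38 (HISAT2 2.1.0), and the deposited table holds the TPM of each gene of Ensembl release 102 as quantified by StringTie 2.1.4. Their DESeq2 1.30.1 test ran on counts, which were not used here. Since TPM values are scaled to 1 total, sequencing depth is unknown, and precision is set by having 2 libraries in each group. Genes above 0 numbered 20853 to 24018 per library, and strand use in counting is not given in the sources used here.

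log2(TPM + 1), which understates changes of low genes, was computed, and the 15968 genes with a TPM of 1 or more in 2 or more of 12 libraries were fitted with limma 3.58.1 in R 4.3.3 (a mean per group, eBayes with trend, all 12 libraries), with Benjamini-Hochberg adjustment over all tested genes within each of 9 contrasts and a threshold of 0.05, two-sided. The fit was run on simulated data as a check of the code. Each gene had the same spread in all groups there, unlike shScram Pre here, so that run says nothing about the calls in these libraries. Positions and GC content came from GENCODE release M21 (GRCm38) and promoters from RefSeq.

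All 10 members are named. Other pathway genes are named where called between the lines or where they belong to the complex or its switch, with Klf15 and Fto, and for each member up to 3 genes of most similar pattern. Members and lists were chosen with earlier results of these data known. Alternatives were another pseudocount, filters, scalings, the libraries in the fit, the variance trend, the replicate number as a block, and leaving out single libraries. A correction for transcript GC content was chosen after seeing the data.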

Additional observations from a re-analysis of the deposited data

Results flagged for a closer look

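For Ivd, the change from Pre to MCE differed between the lines by -1.17 on the log2(TPM + 1) scale (limma interaction, adjusted p = 0.048), with 0.34 in shScram and -0.84 in shFto cells. The value was -0.82 without replicate 1 of shScram Pre and -0.96 with the correction for GC content. It passed in 6 of 21 alternatives, over which the adjusted p ranged from 5.3e-06 to 0.17.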

How the results depend on the processing

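For the members, 25 differences passed the threshold in the fit of all 12 libraries, and 7 of these passed in all 21 alternatives. Bcat1 did so between the lines at the MCE and Diff stages and from MCE to Diff in both lines. Mccc2 did so between the lines at the Diff stage, and Mccc1 in both stage changes in shFto cells. Calls of other pathway genes, such as Auh, Aldh6a1 and Slc43a2, were not part of this count. None of the 25 changed sign. The number of members called depended on the setting. With only the libraries of the contrast it was 0, 5 and 5 between the lines at the Pre, MCE and Diff stages. Of all 15968 genes tested, 0, 5913 and 6613 were called there. In shScram cells it was 0 and 8 for MCE against Pre and Diff against MCE, against 504 and 6454 genes. It was 7 for MCE against Pre in shFto cells, against 7999 genes, and 0 for the interaction from Pre to MCE, against 239. Median-ratio scaling gave 6 and 2 in shScram cells (6008 and 3603 of all genes) and 2 for MCE against Pre in shFto cells (4483). Quantile normalization gave 5, 2 and 2, against 5664, 2838 and 4034 genes. The correction for GC content, with 15928 genes tested, gave 5 between the lines at the MCE stage, against 4655 genes. It gave 6 for MCE against Pre in shScram cells (7017 genes) and 3 for the interaction (1609 genes). That interaction count was 0 with a pseudocount of 0.1, no filter or no variance trend, against 629, 727 (of 33021) and 818 genes.

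With each library left out in turn, the counts were 0 to 9, 1 to 6 and 2 to 5 between the lines at the 3 stages, 2 to 8 and 1 to 8 for the stage changes in shScram cells, 1 to 7 and 2 to 7 in shFto cells, and 0 to 5 for the interaction from Pre to MCE. The difference of Bckdha between the lines in preadipocytes ranged from -0.13 to 1.71, and that of Ivd between MCE and Pre in shScram cells from -0.014 to 0.69. Where a group is left with 1 library, that library is assumed to vary like the other groups. The cause of these changes was not tested.

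In a check for pairing by replicate number, 2 of 15 pairs of groups had deviations that correlated above 0.1 (range -0.29 to 0.17). The check counted positive values only, and the lowest, between shScram Pre and shScram Diff, was the largest in size. It therefore cannot show that the libraries share no batch. With the replicate block the interaction count was 0, where 553 of the 15968 genes tested were called. Of the 25 calls, 3 were lost with it, and none was gained. TPM keeps no depth, so precision by depth cannot be given.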
